A study of Mus musculus with 48 samples.

Results

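The hemidesmosome and laminin-332 adhesion genes were followed here in the epidermis of mice aged 47 weeks over 1 day. They are 9 genes of the 27179 gene IDs in the count table, found by their Entrez IDs: Dst, Plec, Col17a1, Itga6, Itgb4, Itga3, Itgb1, Lama3 and Lamb3. All 9 had reads in every library, from 4899 to 214914 reads, and all 9 passed the filter on low counts. The samples were epidermal cell suspensions from mice aged 47 weeks, labelled ColXIV KO or ColXIV WT, where ColXIV is collagen XIV. Animals were killed at 6 times of day, given as Zeitgeber time (ZT, in h from lights on): ZT0, ZT4, ZT8, ZT12, ZT16 and ZT20. Each of the 12 combinations of label and time had 4 libraries, which makes 48. The labels give neither the allele nor the strain, and name no other treatment.

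Basal keratinocytes are fastened to the basement membrane by hemidesmosomes. In these plaques the integrin α6β4 (Itga6, Itgb4) and the transmembrane collagen XVII (Col17a1, also known as BP180) hold laminin-332 on the outside, and the plakins plectin (Plec) and the epithelial form of dystonin (Dst, BP230) link to keratin filaments inside. Laminin-332 is a trimer, and Lama3 and Lamb3 encode its α3 and β3 chains. The integrin α3β1 (Itga3, Itgb1) binds the same laminin from actin-linked focal adhesions. Loss of several of these proteins causes blistering of the skin in people and mice, and collagen XVII is known to decline in aged mouse skin. All libraries here share the same age, so no change with age can be read from them.

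Totals per library ranged from 35.6 to 43.7 M reads, and levels are given as CPM, the usual depth-scaled read count, after TMM scaling. Col14a1, the gene for collagen XIV, went against the labels: it was at 61.3 ± 8.41 CPM (SD, n = 24) in libraries labelled KO and at 1.23 ± 0.94 CPM (SD, n = 24) in libraries labelled WT. The groups are therefore named by label, and no direction below is a direction of gene loss. Whether the deposited count covers a deleted part of Col14a1 is not given in the sources used here. Xist was at 1317 CPM or more in 15 libraries labelled WT and 9 labelled KO, and did not exceed 4.25 CPM in the remaining 24; each time held 3 to 5 of the high libraries. Within a time the labels were not balanced: at ZT20 all 4 WT libraries and 1 of 4 KO libraries were high, and at ZT0 3 of 4 and 1 of 4. The clock gene Arntl (Bmal1) peaked at 23.6 ± 0.14 h with a 3.84-fold swing, and Dbp, a clock output gene, at 10.8 ± 0.13 h. The summed level of 7 basal keratinocyte markers was 19060 to 29350 CPM under the WT label and 22590 to 30760 CPM under the KO label. All 7 endothelial markers were below 1 CPM, as were 4 of 9 fibroblast markers (Lum, Pdgfra, Fbn1, Dpt) and the Schwann cell markers Sox10, Cdh19 and S100b. The fibroblast sum ran from 49.0 to 403 CPM and was highest in the library WT ZT16 replicate 4, which also had the highest sum of hair shaft markers, 316 CPM.

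Collagen XVII was the most abundant of these transcripts. Per kilobase of exon, Col17a1 averaged 750 CPM over the 48 libraries. Itgb4 followed at 79.9, Plec at 68.5, Lamb3 at 58.1, Itga6 at 54.3, Itgb1 at 49.2, Itga3 at 33.6, Lama3 at 25.8 and Dst at 20.8 CPM per kilobase. The length used for each gene is the union of all its annotated exons. For Dst this is 41.2 kb, which also holds exons of its neuronal and muscle forms, so its value per kilobase is a lower estimate for a shorter form. The same limit applies to the other genes, among them Plec (18.1 kb) and Lama3 (10.7 kb), so the order below Col17a1 is approximate. Dst varied most between libraries: the coefficient of variation over all libraries was 23.7% for Dst and 9.08% to 14.2% for the other 8 genes.

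**Figure D1:**
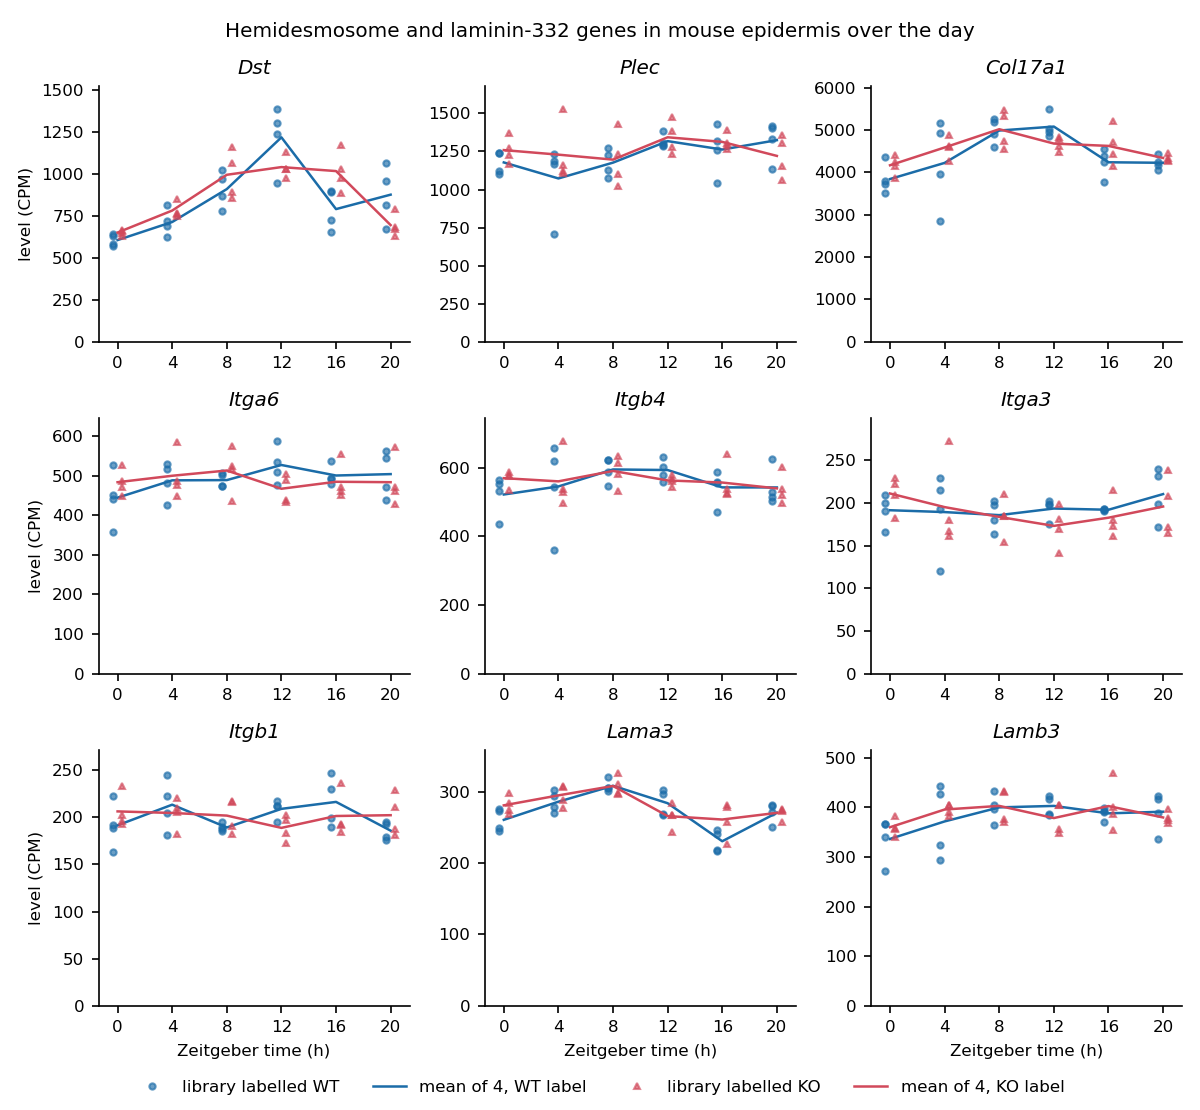
Level of each of the 9 genes (y axis, TMM-scaled CPM from 0) against Zeitgeber time (x axis, hours); points are single libraries, lines join the means of 4 libraries per label. Dst rose from 568 to 665 CPM at ZT0 to 943 to 1383 CPM at ZT12, while Itga6, Itga3 and Itgb1 stayed within overlapping ranges at all 6 times.

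Time of day was tested first without an assumed waveform, over both labels. 3 of the 9 genes changed over the 6 times: Dst, Col17a1 and Lama3. Of all 17068 genes tested, 45% were called in the same test, so the share of 3 in 9 was not above the background. The median range between the lowest and the highest time was 0.21 on the log2 scale for the 9 genes and 0.28 for all genes. In bulk samples, fewer cells of a type and less RNA per cell cannot be told apart.

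Dst, the inner-plaque plakin, had the largest change of the 9 genes over the day. At ZT0 the libraries labelled WT were at 626, 581, 568 and 641 CPM and those labelled KO at 665, 644, 630 and 658 CPM. At ZT4 the values were 689, 719, 625 and 813 CPM (WT label) and 759, 849, 745 and 767 CPM (KO label). The rise continued from here towards dusk. At ZT8 they were 777, 866, 1021 and 967 CPM (WT label) and 893, 855, 1065 and 1158 CPM (KO label). At ZT12 they were 1300, 943, 1383 and 1237 CPM (WT label) and 1025, 974, 1128 and 1027 CPM (KO label). Every library at ZT8 and at ZT12 was above every library at ZT0, and every library at ZT12 was above every library at ZT4. At ZT16 the WT label had 893, 650, 889 and 721 CPM and the KO label 883, 1028, 977 and 1172 CPM. At ZT20 the WT label had 954, 810, 1065 and 668 CPM and the KO label 627, 791, 672 and 684 CPM. The night values were spread widely, and neighbouring times in the order ZT0, ZT4, ZT20, ZT16, ZT8, ZT12 overlapped in every case. Averaged over labels, Dst went from 626 ± 34.7 CPM (SD, n = 8) at ZT0 to 1127 ± 163 CPM (SD, n = 8) at ZT12. The fitted ratio of the highest to the lowest time was 1.79-fold (edgeR F test, Benjamini-Hochberg adjusted p = 3.26e-09).

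Col17a1 rose in the middle of the light phase. At ZT0 it was at 4357, 3717, 3515 and 3793 CPM under the WT label and at 4406, 3872, 4253 and 4154 CPM under the KO label. At ZT8 it was at 4598, 5190, 5272 and 4911 CPM (WT label) and 4548, 5338, 4740 and 5472 CPM (KO label). At ZT12 it was at 5020, 4873, 4956 and 5497 CPM (WT label) and 4838, 4784, 4478 and 4638 CPM (KO label). All 16 libraries of ZT8 and ZT12 were above all 8 of ZT0. At ZT20 the 8 libraries lay between 4050 and 4466 CPM, below every library of ZT8 and of ZT12. At ZT16 they lay between 3771 and 5214 CPM with a median of 4409, and at ZT4 between 2847 and 5161 CPM with a median of 4612, overlapping all other times. The highest time exceeded the lowest 1.25-fold (edgeR, adjusted p = 0.00405).

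Lama3, the α3 chain of laminin-332, was highest at ZT8 and lowest at ZT16. At ZT8 it was at 306, 301, 306 and 320 CPM under the WT label and at 299, 297, 311 and 326 CPM under the KO label. At ZT16 it was at 240, 217, 247 and 219 CPM (WT label) and 227, 278, 258 and 281 CPM (KO label). These 2 sets of 8 did not overlap, and ZT8 was also above ZT20, where the range was 250 to 281 CPM. At ZT0, ZT4 and ZT12 the ranges were 245 to 298, 270 to 307 and 244 to 303 CPM. The highest time exceeded the lowest 1.26-fold (edgeR, adjusted p = 4.78e-06).

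The integrin chains, Plec and Lamb3 did not pass the test of time. Over the 48 libraries Itga6 ranged from 357 to 586 CPM, Itgb4 from 360 to 677, Itga3 from 121 to 272 and Itgb1 from 163 to 246 CPM, with every time overlapping every other. Itga6 had medians from 461 CPM at ZT0 to 503 CPM at ZT8 (adjusted p = 0.743), and Itgb4 from 525 CPM at ZT20 to 601 CPM at ZT8 (adjusted p = 0.576). Itga3 had medians of 185 to 205 CPM (adjusted p = 0.665) and Itgb1 of 190 to 208 CPM (adjusted p = 0.497). Lamb3, the β3 chain, ranged from 273 to 469 CPM and Plec from 708 to 1528 CPM, again with no pair of times apart. Lamb3 had a median of 358 CPM at ZT0 and 401 CPM at ZT8 (adjusted p = 0.124), and Plec one of 1163 CPM at ZT4 and 1321 CPM at ZT20 (adjusted p = 0.224). All of these adjusted p are from the edgeR F test.

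A cosine of 24 h was then fitted, with its amplitude given as the log2 distance from mean to peak. The same 3 genes passed, against 26.6% of all genes tested. Dst had an amplitude of 0.38 ± 0.03 (jackknife SE, 48 libraries), a swing of 1.68-fold from trough to peak, and a peak at 12.0 ± 0.36 h (edgeR, adjusted p = 7.23e-09). Col17a1 had an amplitude of 0.15 ± 0.02, a 1.23-fold swing and a peak at 10.3 ± 0.83 h (adjusted p = 0.000706). Lama3 had an amplitude of 0.12 ± 0.02, a 1.19-fold swing and a peak at 5.95 ± 0.54 h (adjusted p = 6.14e-05). Among those that did not pass, Plec had an adjusted p of 0.0977, Lamb3 of 0.135, Itgb4 of 0.278, Itga3 of 0.303, Itga6 of 0.642 and Itgb1 of 0.993. Plec passed when the library WT ZT16 replicate 4 was left out (adjusted p = 0.0338), and also without KO ZT4 replicate 1. The median amplitude was 0.08 for the 9 genes and 0.08 for all genes tested.

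**Figure D2:**
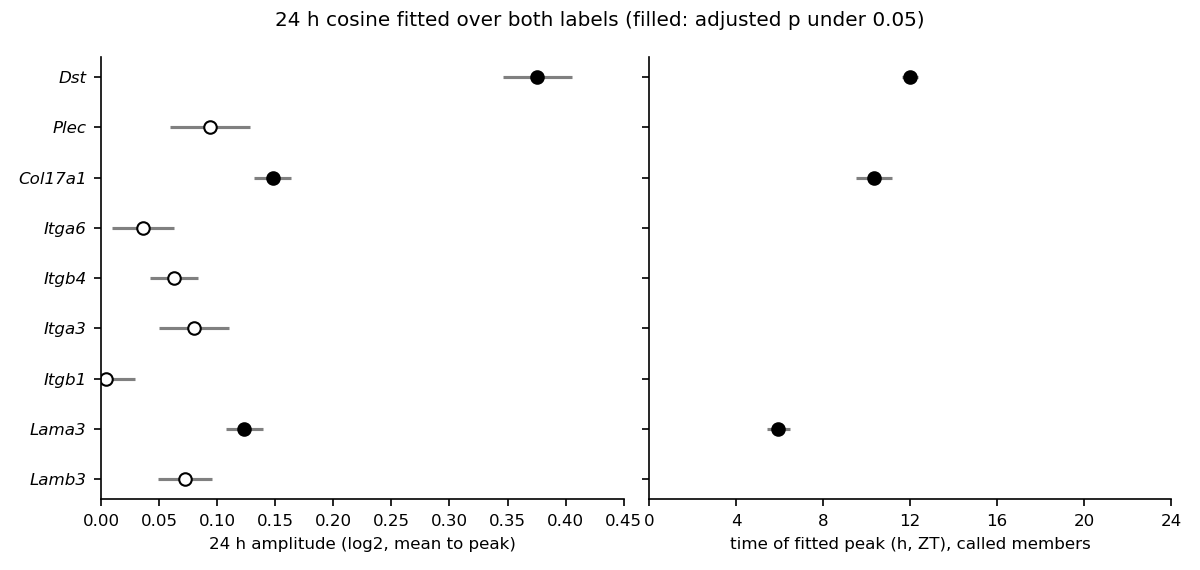
Left, amplitude of the 24 h cosine for each gene (x axis, log2, mean to peak) with its jackknife standard error; right, the time of the fitted peak (x axis, hours) with its standard error for the 3 genes that passed. Filled points had an adjusted p under 0.05; Dst at 0.38 lies well to the right of the other 8, and Lama3 peaks at 5.95 h, before Col17a1 and Dst.

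Basal keratinocyte genes were set beside these rhythms. Their summed level was lowest at ZT0, 24110 CPM, and highest at ZT16, 27500 CPM. Of the 7 markers Krt15 alone passed the rhythm test (amplitude 0.13, peak 13.6 h, edgeR adjusted p = 0.00777), and Krt5 and Krt14 did not (adjusted p = 0.227 and 0.824). The sum of 8 suprabasal keratinocyte markers was lowest at ZT12, 23910 CPM, and highest at ZT4, 29530 CPM. Of these, 2 passed the rhythm test in edgeR: Ivl (peak 22.95 h, adjusted p = 9.47e-05) and Krtdap (peak 1.48 h, adjusted p = 0.0366). No suprabasal term was fitted, and the part of these cells in the Dst, Col17a1 and Lama3 rhythms was not tested. Over 10 other settings, among them a term for the mean level of Krt5, Krt14 and Krt15, the amplitude of Dst stayed between 0.37 and 0.39, that of Col17a1 between 0.13 and 0.15, and that of Lama3 between 0.12 and 0.13. All 3 passed in each of the 10. Of the Schwann cell list, 3 of 6 tested genes changed with time, the sum being lowest at ZT0 (105 CPM) and highest at ZT12 (129 CPM), with Sox10 and Cdh19 below 1 CPM; its part in the Dst values was not tested.

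The 3 genes that passed were set against partners that did not. The log2 ratio of a pair was taken in each library, which removes the library's depth and scale. The 3 pairs were chosen after the levels had been seen, each with 1 gene that had passed the rhythm test and 1 that had not, so the ratios are a description and no test is given. Dst over Plec, the 2 plakins, was at -0.96 ± 0.11 (SD, n = 8) at ZT0 and -0.25 ± 0.22 (SD, n = 8) at ZT12. The libraries of ZT0 lay between -1.10 and -0.81 and those of ZT12 between -0.51 and 0.09, without overlap. The 24 h amplitude of that ratio was 0.33. Lama3 over Lamb3, chains of the same trimer, was at -0.69 ± 0.12 (SD, n = 8) at ZT16 and at -0.36 ± 0.10 (SD, n = 8) at ZT0. Its groups did not overlap, with -0.85 to -0.53 at ZT16 and -0.47 to -0.13 at ZT0. Its amplitude was 0.15, with a peak at 3.86 h. Col17a1 over Itgb4 differed less between times, from 2.88 ± 0.11 (SD, n = 8) at ZT0 to 3.08 ± 0.05 (SD, n = 8) at ZT12, with ranges of 2.74 to 3.01 and 2.98 to 3.13 that touched. Its amplitude was 0.09.

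**Figure D3:**
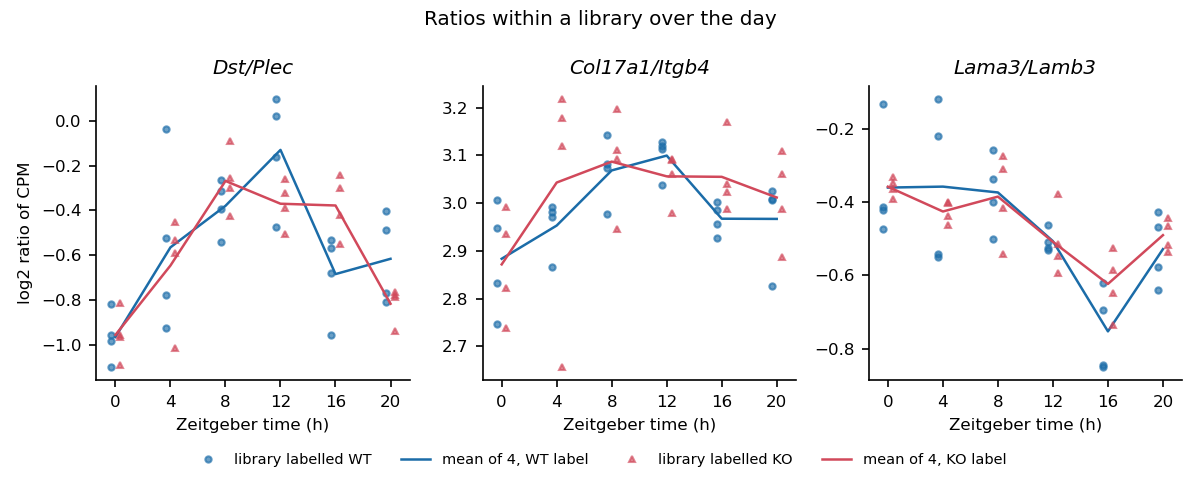
Log2 ratio of CPM within each library (y axis) for Dst over Plec, Col17a1 over Itgb4 and Lama3 over Lamb3, against Zeitgeber time (x axis, hours); points are libraries and lines the means of 4 per label. Dst over Plec is lowest at ZT0 (mean -0.96) and Lama3 over Lamb3 at ZT16 (mean -0.69); each y axis has its own range.

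Promoters were read because Dst and Col17a1 peak near the clock output gene Dbp. From the RefSeq promoter table (GRCm38.p6), 8 entries were used, for 5 of the 9 genes: Dst, Col17a1, Itga3, Itgb1 and Lamb3. These are the entries used, and what else the table held for the 9 genes is not given here. The promoters of Lama3, Plec, Itga6 and Itgb4 were not analysed here, so nothing is said about them. Each entry was searched on both strands, from 250 bases before the start to 50 after it, for the E-box CACGTG, the ROR element core AGGTCA, the D-box TTANGTAA, the TEAD motif GGAATG and the AP-1 motif TGANTCA. None of these letters occurred in either Dst window or in the Col17a1 window, which says nothing about binding elsewhere. Of 32851 mouse promoters in the table, 7.15% held the E-box, 16.3% the ROR core, 2.32% the D-box, 14.7% the TEAD motif and 7.81% the AP-1 motif. Among the other genes, Itgb1 held GGAATG, ending within 10 bases of its start, Lamb3 held its reverse complement CATTCC in its second entry, and Itga3 held TGAATCA in its second entry, 12 bases after the start. No matches overlapped. Itgb1 was added as a gene with a match that did not pass the rhythm test. The bases before the start are printed for both entries of Dst (first and second start below), for Col17a1 and for Itgb1, with the match in capitals. They lie at chr1:34011345-34011594 and chr1:34160010-34160259 on the plus strand (Dst), chr19:47692043-47692292 on the minus strand (Col17a1) and chr8:128685404-128685653 on the plus strand (Itgb1). The annotated Dst gene begins further upstream, at chr1:33907888, and no entry used here covered that start. Which of the Dst starts was used in these cells cannot be told from gene counts.
Dst, first start: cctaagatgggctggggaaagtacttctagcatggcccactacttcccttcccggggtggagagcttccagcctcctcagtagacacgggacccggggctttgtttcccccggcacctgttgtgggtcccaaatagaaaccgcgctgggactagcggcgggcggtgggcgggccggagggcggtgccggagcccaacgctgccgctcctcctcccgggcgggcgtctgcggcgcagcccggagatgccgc
Dst, second start: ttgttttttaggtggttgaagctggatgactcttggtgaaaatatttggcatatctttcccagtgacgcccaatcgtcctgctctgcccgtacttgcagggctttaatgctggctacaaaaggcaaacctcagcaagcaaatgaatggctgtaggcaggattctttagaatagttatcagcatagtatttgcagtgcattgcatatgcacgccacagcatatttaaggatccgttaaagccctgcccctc
Col17a1: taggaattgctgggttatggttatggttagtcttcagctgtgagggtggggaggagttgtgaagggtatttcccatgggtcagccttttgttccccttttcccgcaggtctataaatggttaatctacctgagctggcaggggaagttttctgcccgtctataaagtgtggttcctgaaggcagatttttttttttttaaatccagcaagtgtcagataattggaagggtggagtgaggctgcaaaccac
Itgb1: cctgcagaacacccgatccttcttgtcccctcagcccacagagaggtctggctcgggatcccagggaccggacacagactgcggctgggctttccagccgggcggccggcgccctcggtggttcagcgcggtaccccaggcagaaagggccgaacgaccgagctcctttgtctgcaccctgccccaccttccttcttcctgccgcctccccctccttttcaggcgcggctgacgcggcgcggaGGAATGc

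The comparison of labels asked whether the 9 genes differed between libraries labelled KO and WT. None was called on average over the 6 times, against 0.34% of all genes called (58 genes). edgeR called 0 of 9, and so did DESeq2 (0 of 9) and limma-voom (0 of 9). Before adjustment 0 of 9 were below 0.05 in edgeR, against 1177 of all 17068 genes tested. The log2 fold changes, KO label over WT label, ran from -0.03 (Itga3) to 0.05 (Col17a1), with adjusted p from 0.819 to 0.998. The 95% intervals of the 9 genes lay within 0.90-fold and 1.11-fold. The level of Col17a1 was 2847 to 5497 CPM, with the WT and KO ranges overlapping, and the same held for the other 8 genes. Plec lies on chromosome 15, as Col14a1 does, 20.9 Mb away; 37 of the 656 tested genes of that chromosome were called, 5.64%, and Plec was not (0.05 ± 0.05, adjusted p = 0.901).

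Single times gave no called member either. Over the 6 times, 54 tests were made on the 9 genes, and edgeR, DESeq2 and limma-voom each called 0. Among all genes, 0.0527% were called at ZT0 and the same share at ZT4. The share was 0.0762% for ZT8, 0.0234% for ZT12, 0.129% for ZT16 and 0.0586% for ZT20. The unadjusted p was under 0.05 in 3 of the 54. Of all 17068 genes tested, 507 were under 0.05 before adjustment at ZT0, 1040 at ZT4 and 628 at ZT8. At ZT12 they were 845, at ZT16 1643 and at ZT20 1415, so 3 in 54 did not stand out from all genes. At ZT16 the libraries listed above gave Dst a log2 fold change of 0.36 ± 0.12 (unadjusted p = 0.00463, edgeR adjusted p = 0.331). The ranges overlapped there, 650 to 893 CPM (WT label) against 883 to 1172 CPM (KO label). At ZT20 the difference had the opposite sign, -0.33 ± 0.12 (unadjusted p = 0.00875, adjusted p = 0.562). Xist was high in 4 of the 4 WT and 1 of the 4 KO libraries there; with terms for sex-linked expression the Dst difference was -0.31 (unadjusted p = 0.0176). Lama3 at ZT16 was at 0.18 ± 0.06 (unadjusted p = 0.00656, adjusted p = 0.355), again with overlapping libraries.

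The differences between times were tested themselves. No gene of the 17068 had a label difference that varied over the 6 times at an adjusted p under 0.05 in edgeR (0%; 1041 at an unadjusted p under 0.05, 26 called by DESeq2 and 0 by limma-voom). Dst had an unadjusted p of 0.00215 and an adjusted p of 0.524, and the other 8 genes were at an unadjusted p of 0.0592 or more. No gene tested was called for a rhythm difference between labels (0% by edgeR, 0 by DESeq2 and by limma-voom), which does not show equal rhythms. In edgeR 395 genes were at an unadjusted p under 0.05, and the 9 genes had an unadjusted p of 0.189 to 0.651. Under the WT label 3 of 9 genes were rhythmic (background 11.6%), and under the KO label 2 of 9 (background 12.2%). Dst peaked at 12.4 ± 0.57 h under the WT label and at 11.6 ± 0.42 h under the KO label, with amplitudes of 0.38 and 0.38. Lama3 had amplitudes of 0.14 and 0.11 (adjusted p = 0.00258 and 0.0341). Leaving out any 1 of 7 KO libraries ended the Lama3 call under that label: ZT4 replicate 2 or 4, ZT8 replicate 3 or 4, ZT16 replicate 1 or 3, or ZT20 replicate 3, with an adjusted p of up to 0.109. Col17a1 had amplitudes of 0.19 and 0.11 (adjusted p = 0.00574 and 0.199), and with terms for sex-linked expression the value under the KO label passed (0.14, adjusted p = 0.0329).

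**Figure D4:**
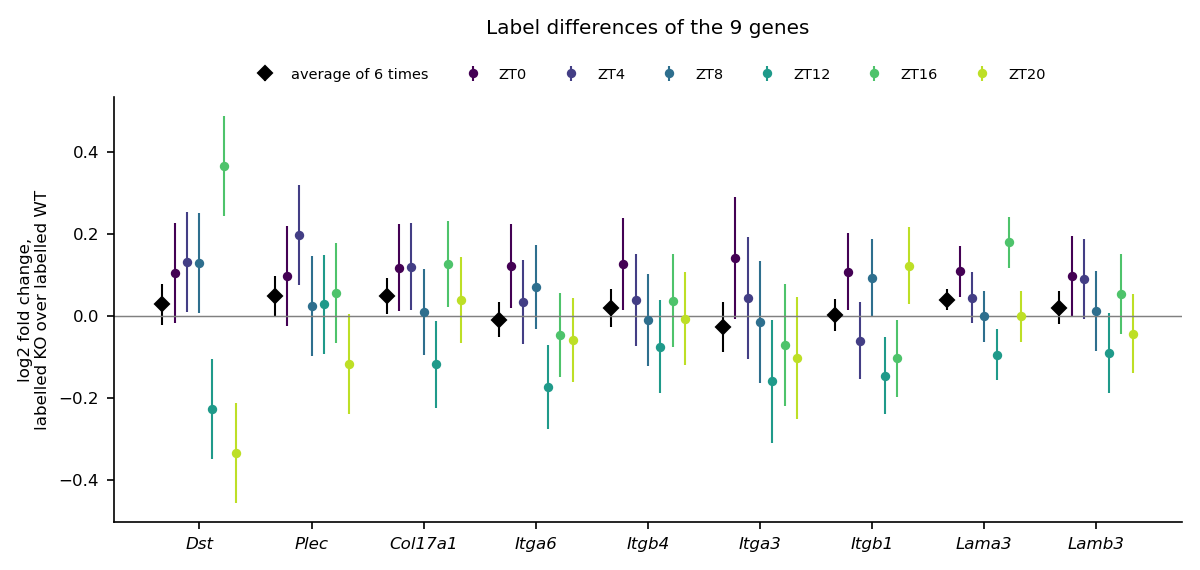
Log2 fold change, KO label over WT label (y axis), for each gene (x axis), averaged over 6 times (diamonds) and at each time (circles, coloured by time), with standard errors. The averages lie between -0.03 and 0.05; Dst has the widest spread, from -0.33 at ZT20 to 0.36 at ZT16.

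Libraries of the same group differed in a shared way. After the group means were removed, the integrin partners Itga6 and Itgb4 had a Pearson r of 0.75 and a Spearman rho of 0.82 over 48 libraries (permutation within groups, both p = 1e-05, the smallest possible, adjusted 4e-05 over 4 pairs). Lama3 and Lamb3 had r = 0.63 and rho = 0.63 (permutation p adjusted 4e-05 and 0.0001). Dst and Plec had r = 0.39 and rho = 0.45 (permutation p adjusted 0.0177 and 0.00601). With the 2 libraries most distant from the first gene's median left out, r was 0.74, 0.60 and 0.37 for these 3 pairs. For Itga3 and Itgb1 the measures disagreed, with r = 0.25 (permutation p = 0.164, adjusted 0.164) and rho = 0.34 (adjusted 0.0397). The r of that pair was lowered by the library WT ZT4 replicate 1, which had the lowest Itga3 of its group, 121 CPM, and the highest Itgb1, 245 CPM. Without that library r was 0.51 (permutation p = 0.0015). This was the highest r of the 48 omissions of 1 library, over which the permutation p ran up to 0.314. Without the 2 farthest libraries r was 0.42.

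Such relations were not confined to these pairs. As a description, 35 of all 36 pairs among the 9 genes had a positive r, with a median of 0.45, from -0.21 (Plec and Itgb1) to 0.83 (Itgb4 and Itga3). These points share library, scaling and tissue make-up. No share of positive pairs over all genes is given here, so 35 of 36 cannot be set against a background. With the mean of Krt5, Krt14 and Krt15 also removed, 30 of 36 stayed positive with a median of 0.33. The partner pairs then had r = 0.71 (Itga6 and Itgb4), 0.05 (Itga3 and Itgb1), 0.44 (Lama3 and Lamb3) and 0.39 (Dst and Plec).

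**Figure D5:**
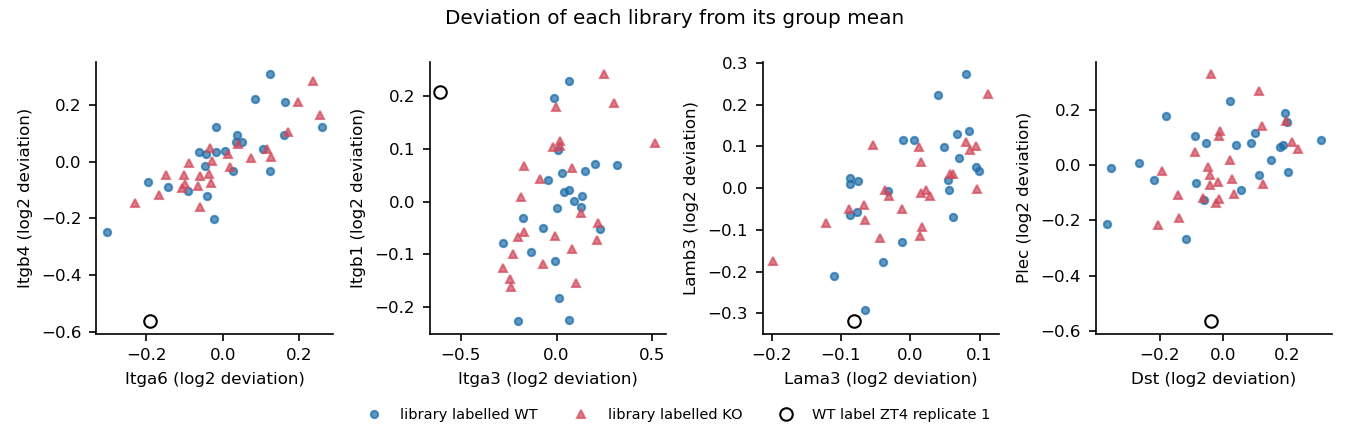
Deviation of each of the 48 libraries from its group mean (log2 CPM) for 4 partner pairs, the first gene on the x axis and the second on the y axis. Itga6 and Itgb4 lie closest to a line (r = 0.75); the open circle, WT ZT4 replicate 1, is far from the rest for Itga3 and Itgb1.

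Of the other genes with at least 10 CPM (9636 candidates), those closest to each member after removal of the group means were named by the highest Pearson r over the 48 libraries, as a description. For Dst these were Gfer (0.94), Ablim3 (0.74) and Tns4 (0.72), the last encoding the adhesion adaptor tensin 4. For Plec they included Adcy3 (0.87) and Cdc42bpb (0.86). For Col17a1 they were Dda1 (0.85), Bag6 (0.85) and Atg9a (0.84). For Itga6 they were Ehd2 (0.84), Ccnd1 (0.75) and Lmna (0.75). For Itgb4 they were B230344G16Rik (0.98), Jag2 (0.89) and Card10 (0.85). B230344G16Rik is a long noncoding RNA gene at chr11:115987998-115993715, inside the span of Itgb4 (chr11:115974725-116008412), and since the strand setting of the counting is not given, reads of the 2 genes may not be separate. For Itga3 they were Lmna (0.85), B230344G16Rik (0.83) and Ppp1r9b (0.81). For Itgb1 they were S100a10 (0.90), Cav2 (0.89) and Hprt (0.86). For Lama3 they were Vegfd (0.75), Usp24 (0.72) and Auh (0.70), and for Lamb3 Tgfbi (0.87), Trp53i11 (0.83) and Cdh3 (0.80).

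Beyond the 9 genes, 78 of 80 listed genes of the same adhesion system were tested. None was called between labels on average: edgeR, DESeq2 and limma-voom each called 0 of 78. The unadjusted p in edgeR was under 0.05 for 5 of 78, against 1177 of all 17068 genes tested. In the edgeR tests of time, 32 of 78 changed over time (background 45%) and 28 of 78 were rhythmic (background 26.6%). The median label difference was 0.0093 on the log2 scale, against -0.0016 for all genes. All adjusted p in the next sentences are from the edgeR rhythm test unless another is named.

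Of the 9 other laminin chains 3 were rhythmic. Among them was Lamb2, the β2 chain, with a peak at 14.0 h (adjusted p = 0.00214). Lama5, the α5 chain of laminin-511, changed over time 1.41-fold (time test, adjusted p = 8.02e-05) and did not pass the rhythm test (adjusted p = 0.102). Of 5 tested hemidesmosome partners, Cd151, a tetraspanin that binds laminin-binding integrins, changed over time 1.12-fold (time test, adjusted p = 0.000173), and edgeR, DESeq2 and limma-voom each called 0 of 5 rhythmic, with 0 at an unadjusted p under 0.05.

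Of 21 other basement membrane genes 6 were rhythmic. The collagen IV chain gene Col4a5 peaked at 5.79 h (1.18-fold, adjusted p = 0.0154) and Col4a6 at 10.1 h (1.22-fold, adjusted p = 0.0171). Smoc2, which encodes a secreted matrix protein of the SPARC family, peaked at 10.8 h with a 1.43-fold swing (adjusted p = 1.29e-05). These 3 had the smallest p over the tests of time and of rhythm. By rhythm alone Col4a3 (1.54-fold, peak at 13.1 h, adjusted p = 0.000825) and Frem2 (1.35-fold, peak at 5.63 h, adjusted p = 0.00118) had smaller p than Col4a5 and Col4a6, and are named outside the rule. Of 10 other integrin chains 3 were rhythmic. Itga8, at only 0.79 CPM, had a 4.09-fold swing and a peak at 14.2 h (adjusted p = 3.67e-08). The collagen receptor chain Itga2 peaked at 4.49 h (1.13-fold, adjusted p = 0.0472), and Itgb6, a chain of a TGF-β activating integrin, at 23.0 h (1.27-fold, adjusted p = 0.00641).

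Of 22 tested integrin adaptor and focal adhesion genes 8 were rhythmic. Tns4 peaked at 11.5 h with a 1.42-fold swing (adjusted p = 1.93e-06), near the peak of Dst, and Kank1, a talin-binding protein, at 14.2 h (1.40-fold, adjusted p = 1.03e-05). Vcl, vinculin, peaked at 23.3 h (1.24-fold, adjusted p = 2.61e-06). Of 11 proteases that process laminins or collagen XVII, or belong to such families, 8 were rhythmic. Adam17, an ectodomain sheddase of collagen XVII, peaked at 0.12 h (1.24-fold, adjusted p = 8.8e-10), and Mmp14, a membrane metalloprotease, at 0.76 h (1.35-fold, adjusted p = 4.5e-07). Tll1, of the BMP1 family of procollagen and laminin processing proteases, had a 3.37-fold swing with a peak at 15.2 h at a mean of 1.63 CPM (adjusted p = 2.01e-08).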

How the data were processed

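Polyadenylated RNA of epidermal cell pellets was sequenced as TruSeq stranded libraries, per the labels' protocols. Trim Galore, STAR 2.7.10a, featureCounts and the builds mm10 and GRCm38 are named in the submitters' processing notes; how each was run, the annotation and whether strand was used in counting: not given in the sources used here. Raw counts per Entrez gene ID were deposited by the authors, with no normalization. Of 27179 IDs, 25275 were named through a RefSeq gene table (GRCm38.p6) and 1904 were left unnamed.

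Counts were scaled by TMM, filtered by filterByExpr over the 12 groups (17068 genes left) and fitted on all 48 libraries with edgeR 4.0.16 (R 4.3.3; glmQLFit robust, glmQLFTest). The main model held 12 group means without a replicate block, and the second a 24 h cosine and sine per label. P-values were adjusted by Benjamini-Hochberg over all genes and called under 0.05. Standard errors of amplitudes and peaks are jackknife errors. Relations and ratios used log2 CPM (prior count 2), and relations had permutation tests. The fits were tested on simulated data. P-values measure the spread between libraries that the labels call biological replicates.

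The alternatives were RLE factors, DESeq2 1.42.0, limma-voom (limma 3.58.1), no filter, a filter of 1 CPM in 24 libraries, the replicate block, sex-linked terms, a dermal term, a basal keratin term, the omission of WT ZT4 replicates 3 and 4 with WT ZT16 replicate 2, and each library left out in turn. The genes, the lists, the tests and the 3 omitted libraries were chosen with earlier results of these data known. All 9 genes and Col14a1 were named, with up to 3 called genes from each list (smallest p over the tests of label, time and rhythm), and 3 genes most alike in each case. A few genes that this rule and the lists would name are not reported here.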

Additional observations from a re-analysis of the deposited data

Results flagged for a closer look

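In 6 of the 108 sets of 4 libraries (9 genes in 12 groups) a single library stood far from its 3 neighbours by Dixon's criterion; chance alone gives about 1 in 20 sets. The 6 fell in 4 libraries. Under the WT label at ZT4, replicate 1 had Plec at 707.9 CPM, where the other 3 libraries were at 1167, 1185 and 1231 CPM, and it was the lowest of its group in 7 of the 9 genes. Under the KO label at ZT4, replicate 1 had Plec at 1528 CPM against 1107, 1122 and 1160 CPM, and Itga3 at 272.2 CPM against 161.5, 167.3 and 179.6 CPM. Under the KO label at ZT16, replicate 4 had Itgb4 at 641.1 CPM against 522.6, 525.2 and 538.6 CPM, and Itgb1 at 236.7 CPM against 184.6, 191.3 and 192.6 CPM. That library was the highest of its group in all 9 genes. Under the KO label at ZT20, replicate 3 had Lama3 at 258.1 CPM against 273.2, 274.4 and 275.5 CPM.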

How the results depend on the processing

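Every member had at least 4899 reads in each library, and 4 libraries per group limit what a single time can show. Under the 10 settings other than leaving out 1 library, 379 of 390 values kept their direction and side of the threshold. The averaged label difference changed sign for Itga6 (0.0021 without the 3 WT libraries), for Lamb3 (-0.0187 with sex-linked terms) and for Itgb1 (-0.0388 with sex-linked terms, -0.0080 with the dermal term, -0.0033 with the basal keratin term and -0.0144 without the 3 WT libraries). The Itga6 amplitude was 0.0224 with its peak moved to 4.96 h under the basal keratin term. None of these was called in any setting, and the cause was not tested. With sex-linked terms Lamb3 passed the time test (adjusted p = 0.0429), as did Plec the rhythm test (0.0426) and Col17a1 the rhythm under the KO label (0.0329); with basal keratins Itgb1 passed the rhythm test (0.0479).

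Leaving out each library in turn, 0 members were called for the label in every fit and 3 for time. The number rhythmic ranged from 3 to 4 over both labels, from 3 to 4 under the WT label, and from 1 to 2 under the KO label. The averaged label difference ran from -0.0247 to 0.0060 for Itga6, -0.0078 to 0.0368 for Itgb4 and -0.0113 to 0.0154 for Itgb1, and the Itgb1 amplitude from 0.0011 to 0.0224. The r of Itga3 and Itgb1 ran from 0.196 to 0.507.

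Whether replicate numbers pair the libraries was left undecided. Same-numbered libraries had a mean correlation of 0.0215, with single pairs from -0.548 to 0.636, and others of -0.0074. Of 48 libraries, 20 correlated best with their own number, more than an even split over the replicate numbers would give. The submitters' library names carry other numbers in some groups, and pairing by those was not examined. With the replicate block, 0, 3, 3, 3 and 2 members were called for the label, time, rhythm over both labels, WT rhythm and KO rhythm, and 58 genes for the averaged label. Over all genes, calls for the averaged label were 58, against 130 with sex-linked terms; at ZT4 they were 9, from 1 to 30 over these settings, and at ZT16 22, from 11 to 121.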
